A study of Mus musculus with 4 samples.

Results

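Serpina3n (ENSMUSG00000021091) is 1 of the 32285 genes in the deposited matrices, and it was chosen by its measured UMI counts across cell classes, tissues and treatments in these same libraries. Its levels and its ratios between treatments are therefore given as a description, with no test. Serpina3n encodes a secreted serine protease inhibitor of the acute-phase type, the mouse counterpart of alpha-1-antichymotrypsin. The inhibitor traps its target protease by offering a reactive loop as bait, after which both proteins stay locked together. In the brain the gene is known as a marker of reactive astrocytes and of disease-associated oligodendrocytes, and acute-phase genes of this kind are known to respond to interleukin 6 and STAT3, to NF-kB and to glucocorticoids.

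Wild-type (WT) mice, 3 per group, received DOCA-salt or a sham treatment, and dissociated cells of their hippocampus and sensory cortex were sequenced one by one. DOCA-salt combines the mineralocorticoid deoxycorticosterone acetate with salt and is a model of high blood pressure. There was 1 library for each tissue and treatment, and the age and sex of the mice, the duration of treatment and any pooling of animals are not given in the sources used here. The labels contradict themselves for 2 libraries, cortex DOCA-salt and hippocampus sham, whose treatment entry disagrees with their title. The titles were used to form the groups, and which library counts as treated depends on that choice. With 1 library per group no replicate error exists, and all intervals in brackets are exact 95% intervals that cover counting error only.

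The libraries held 11159 to 11402 barcodes, of which 10350 to 10777 were kept, at a median of 5540 to 5848 unique molecular identifiers (UMIs, counted RNA molecules) per cell. Between 283 and 298 barcodes of each library also occurred in another library, 94 to 105 for any pair. Cells were put in a class when they held at least 3 of the class's 8 marker genes and at least 2 more than of any other class, which left 6.52% to 10.9% of a library unnamed. The median oligodendrocyte and astrocyte held 8 of its 8 markers, and the median endothelial cell 7. Cells exactly at the limit of that lead made up 2.51% to 7.09% of oligodendrocytes, 5.22% to 12.7% of astrocytes, 10.7% to 21.8% of endothelial cells, 18.7% to 29.7% of pericytes and 9.65% to 10.4% of microglia, except 20.4% of microglia in cortex DOCA-salt.

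The gene lies on chromosome 12, from 104406729 to 104414329 on the plus strand (GRCm38, GENCODE vM21), with 5 exons in 1 transcript and no overlapping gene. It is the last of 11 Serpina3 genes in a row there, beside Serpina3m. Because the paralogs are alike, reads could be shared among them. Of the 50-base stretches in the last 500 bases of the transcript, where 3' libraries are read, 0 of 451 occurred in a transcript of another gene. Over the whole transcript 139 of 2015 (6.90%) did, in 7 other genes. The 250 bases before the RefSeq start are shown because the gene was higher in several cell classes at once. They span chr12:104406458-104406707 on the plus strand (RefSeq, GRCm38.p6), and capitals mark matches to motifs of the pathways named above.
Serpina3n promoter: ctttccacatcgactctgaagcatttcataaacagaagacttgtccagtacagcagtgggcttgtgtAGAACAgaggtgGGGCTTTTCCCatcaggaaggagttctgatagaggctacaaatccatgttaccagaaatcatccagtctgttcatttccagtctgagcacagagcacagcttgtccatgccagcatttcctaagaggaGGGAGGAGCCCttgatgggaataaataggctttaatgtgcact

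On both strands, the NF-kB pattern GGGNNNNNCC matched 4 times, as 2 overlapping pairs, and 45.8% of 32851 promoter windows of the same length hold it. The steroid receptor half-site AGAACA matched 1 time, 183 bases before the start, and 16.1% of windows hold it. The STAT pattern TTCNNNGAA (7.02% of windows), the AP-1 pattern TGANTCA (6.75%) and the C/EBP core TTGCNNAA (9.56%) had 0 matches. Such matches describe letters in this window only.

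Oligodendrocytes, the myelin-forming cells, carried most Serpina3n UMIs of the hippocampus libraries. In the hippocampus DOCA-salt library 3754 oligodendrocytes held 1486 Serpina3n UMIs, or 60.5 per 1000000 UMIs (CPM; 57.5 to 63.7). In the hippocampus sham library 5018 oligodendrocytes held 179, or 5.27 CPM (4.52 to 6.10). The cortex gave 68.1 CPM (64.1 to 72.3; 1084 UMIs in 2792 cells) under DOCA-salt and 5.61 CPM (4.58 to 6.80; 103 UMIs in 2933 cells) under sham. Both DOCA-salt libraries thus stood far above both sham libraries, and the 2 sham levels lay within each other's interval. The ratio of DOCA-salt to sham was 11.5 (9.84 to 13.5) in hippocampus and 12.1 (9.91 to 15) in cortex. By size of ratio Serpina3n was 45th of 15058 genes in hippocampal and 16th of 13805 genes in cortical oligodendrocytes.

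Astrocytes, which support neurons and line vessels, reached nearly the same level as oligodendrocytes. The hippocampus DOCA-salt library had 57.9 CPM (53.3 to 62.7; 588 UMIs in 1678 cells) and the hippocampus sham library 7.26 CPM (5.0 to 10.2; 33 UMIs in 836 cells). The cortex DOCA-salt library had 54.8 CPM (51.9 to 57.8; 1330 UMIs in 4040 cells) and the cortex sham library 3.82 CPM (3.05 to 4.73; 84 UMIs in 3393 cells). The DOCA-salt to sham ratio was 7.97 (5.61 to 11.7) in hippocampus and 14.3 (11.5 to 18.1) in cortex. Under sham, hippocampal astrocytes held 1.90 times the cortical level (1.23 to 2.87), while under DOCA-salt the 2 tissues had a ratio of 1.06 (0.957 to 1.16). In oligodendrocytes the ratio of hippocampus to cortex was 0.939 (0.733 to 1.21) under sham and 0.889 (0.822 to 0.963) under DOCA-salt.

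Vessel cells and microglia held much less. Endothelial cells had 11.0 CPM (8.02 to 14.6; 46 UMIs in 974 cells) in the hippocampus DOCA-salt library, 0.276 CPM (0.00698 to 1.54; 1 UMI in 856 cells) in hippocampus sham, 11.8 CPM (7.97 to 16.9; 30 UMIs in 619 cells) in cortex DOCA-salt and 0.687 CPM (0.0832 to 2.48; 2 UMIs in 668 cells) in cortex sham. With so few sham UMIs the endothelial ratios were wide, at 39.8 (6.79 to 1600) in hippocampus and 17.2 (4.36 to 148) in cortex. Thinned to 2000 UMIs per cell, the cortical ratio was 4.20 (0.838 to 40.6), an interval that includes 1. Pericytes, the contractile cells on capillaries, held 4, 0, 7 and 0 UMIs in the same order of libraries, with no cell above 1. Microglia, the brain's resident macrophages, were taken as the reference for free RNA, which gives UMIs in cells that do not express a gene. Whether microglia themselves express Serpina3n was not tested. In the cortex DOCA-salt library they held 296 Serpina3n UMIs per 100000 UMIs of 8 abundant glial genes, above the 137 of oligodendrocytes and the 224 of astrocytes. In hippocampus DOCA-salt microglia held 236, above the 125 of oligodendrocytes and below the 246 of astrocytes. Under sham they held 21.7 against 9.79 and 31.5 in hippocampus, and 19.6 against 9.92 and 15.2 in cortex. Microglial levels were 5.19 CPM (4.15 to 6.41), 0.651 CPM (0.281 to 1.28), 8.08 CPM (6.63 to 9.76) and 0.486 CPM (0.195 to 1.0) in the library order used for endothelial cells. The microglial ratios of DOCA-salt to sham, 7.97 (3.87 to 19.1) and 16.6 (7.81 to 42.4), were of the size of those in glia. Under DOCA-salt, endothelial cells stood at 2.11 times the microglial level (1.44 to 3.05) in hippocampus and at 1.46 times (0.941 to 2.21) in cortex. The 8 glial genes stood at 2960 and 4787 CPM in these endothelial cells, against 2200 and 2735 CPM in microglia. At the microglial ratio of Serpina3n to these genes, endothelial cells would hold 29.3 and 35.9 Serpina3n UMIs, and 46 and 30 were counted. Pericytes would hold 10.4 and 15.4, and 4 and 7 were counted. Erythroid cells had 8.40 and 10.5 CPM of Serpina3n from 5 and 2 UMIs.

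**Figure D1:**
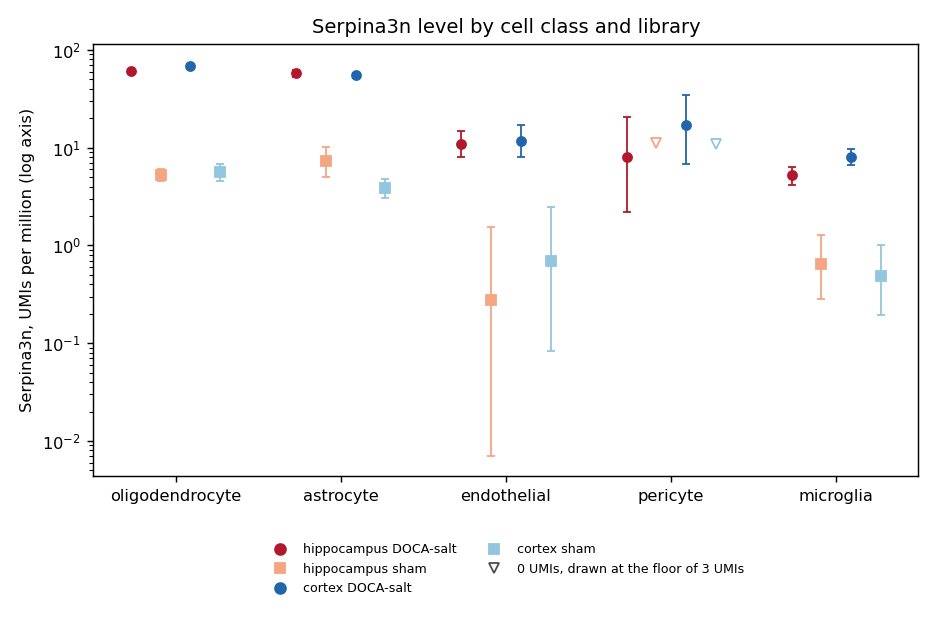
Serpina3n level in CPM on a log axis, for 5 cell classes in the 4 libraries. Points are sums over the cells of a class, bars are exact 95% Poisson intervals, and open triangles mark classes with 0 UMIs at the floor of 3 UMIs. Oligodendrocytes and astrocytes lie between 54.8 and 68.1 in both DOCA-salt libraries and between 3.82 and 7.26 in both sham libraries.

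By point value, in both DOCA-salt libraries oligodendrocytes stood highest, then astrocytes, and microglia lowest of the 5 classes. Pericytes, at 8.05 and 16.8 CPM from 4 and 7 UMIs, could not be ordered against endothelial cells or microglia. Their ratio to microglia was 1.55 (0.413 to 4.12) in hippocampus and 2.08 (0.818 to 4.44) in cortex. Oligodendrocytes and astrocytes had overlapping intervals in hippocampus but not in cortex. In hippocampus endothelial cells stood clear of microglia, and in cortex they did not. A Serpina3n UMI was found in 29.0%, 3.25%, 27.7% and 2.93% of oligodendrocytes and in 25.4%, 3.95%, 26.0% and 2.18% of astrocytes (hippocampus under DOCA-salt, then under sham, then cortex likewise). The microglial shares, at 3.18%, 0.353%, 4.57% and 0.285% with like median depth (5437 to 6212 UMIs per cell), are set beside those values as this reference. Positive oligodendrocytes held a mean of 1.36, 1.10, 1.40 and 1.20 UMIs, and 1 cortex DOCA-salt cell held 18.

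With every cell thinned to 2000 UMIs, 10.6% and 11.2% of oligodendrocytes were positive in the DOCA-salt libraries of hippocampus and cortex, against 1.14% and 1.11% under sham. Astrocytes gave 10.9% and 10.2% against 1.77% and 0.524%. Counts spread over all cells of a class at random, in a Poisson draw of the same mean, would give 11.1% and 11.6% of DOCA-salt oligodendrocytes and 11.0% and 10.6% of DOCA-salt astrocytes. At so low a mean the share of positive cells depends little on how the UMIs are spread, so it does not tell an even spread from a partial one. The variance of the thinned counts was 1.10 times their mean in oligodendrocytes of both DOCA-salt libraries, and 38 and 27 of these cells held 2 or more UMIs. In DOCA-salt astrocytes it was 1.0 times the mean in hippocampus and 1.08 times in cortex. The thinned microglial shares were 1.02%, 0.0957%, 1.88% and 0.0437%. Thinning left out 138 to 265 shallower oligodendrocytes and 100 to 442 shallower astrocytes of a library.

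**Figure D2:**
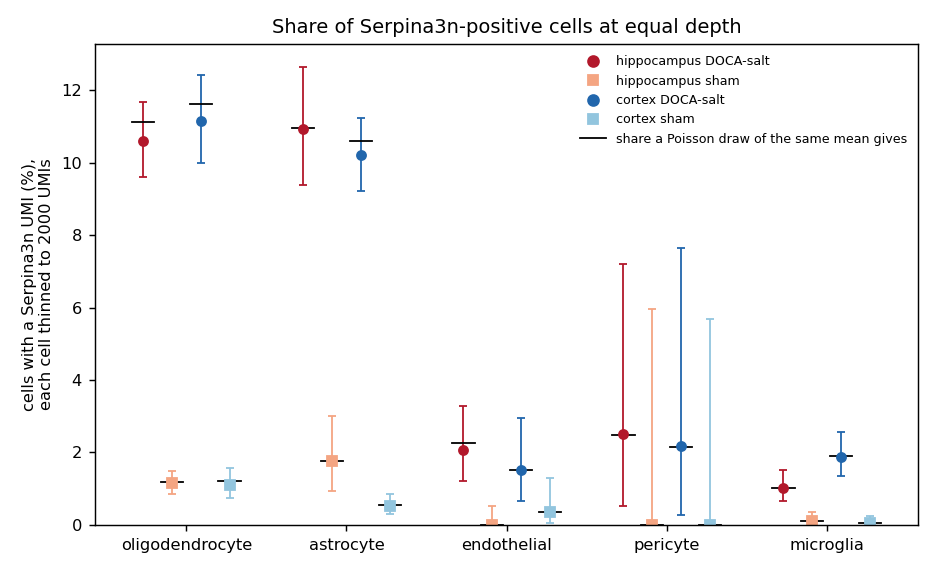
Share of cells with at least 1 Serpina3n UMI after each cell was thinned to 2000 UMIs, by class and library, with exact 95% binomial intervals. Black lines give the share that a Poisson draw of the same mean would give, and in oligodendrocytes and astrocytes they lie close to the points.

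Joint clustering was run without Serpina3n, so its level could be read in each cluster. In 5 oligodendrocyte clusters the level lay between 46.9 and 73.5 CPM in the DOCA-salt libraries and between 3.16 and 9.66 CPM in the sham libraries. These ranges of point values did not overlap, although 1 of the clusters had 3226 of its cells in the hippocampus sham library. In cortex that same cluster gave the 46.9 CPM from 2 UMIs in 11 DOCA-salt cells (5.68 to 169). Its 3.16 CPM came from 1 UMI in 61 sham cells (0.08 to 17.6), and these intervals overlapped. Cells positive for Klk6, a secreted serine protease gene of a mature oligodendrocyte state, were compared at 2000 UMIs per cell. Klk6-positive cells had 111 CPM (71.2 to 165; 108 cells) against 57.2 CPM (51.7 to 63.2; 3381 cells) in Klk6-negative cells of the hippocampus DOCA-salt library. In the cortex DOCA-salt library they had 137 CPM (96.5 to 189) against 57.6 CPM (51.1 to 64.7). Under sham the Klk6-positive cells had 13.6 CPM (3.71 to 34.8) and 10.6 CPM (2.19 to 31.1) from 4 and 3 UMIs. Klk6-negative sham cells had 5.69 CPM (4.26 to 7.44) and 5.84 CPM (3.97 to 8.29), with overlapping intervals. Oligodendrocytes at or under the median for Ptgds, a prostaglandin D synthase gene, had 68.4 CPM against 49.2 CPM above it in hippocampus DOCA-salt, and 81.3 against 45.8 CPM in cortex DOCA-salt. Under sham the values were 5.39 against 6.56 CPM in hippocampus, the other way round, and 6.74 against 5.42 CPM in cortex. Their intervals overlapped in both tissues. The joint cluster led by Klk6 had 58.6 CPM (53.3 to 64.4; 1045 cells) in hippocampus DOCA-salt and 73.5 CPM (66.1 to 81.5; 755 cells) in cortex DOCA-salt. A cluster led by Pou3f1 and Ptgds had 62.2 CPM (57.2 to 67.5) and 68.1 CPM (62.4 to 74.1) there. Between these clusters the intervals overlapped in both libraries.

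Among astrocytes the spread between clusters was wider. A cluster led by Myoc, Gfap and Thbs4 had 88.2 CPM (71.9 to 107) in hippocampus DOCA-salt, 14.5 CPM (5.81 to 29.8) in hippocampus sham, 113 CPM (78.4 to 158) in cortex DOCA-salt and 29.3 CPM (15.2 to 51.2) in cortex sham, from 41 to 128 cells each. A cluster led by Gria1 and Agt had 95.1, 8.91, 86.5 and 14.8 CPM. The 2 largest astrocyte clusters lay lower, at 58.3, 8.0, 53.6 and 3.27 CPM and at 47.9, 4.83, 47.9 and 2.98 CPM. Astrocytes with at least 3 thinned UMIs of Gfap, the intermediate filament gene of reactive and fibrous astrocytes, had 125 CPM (64.6 to 218; 48 cells) in hippocampus DOCA-salt against 52.2 CPM (43.0 to 62.6; 1093 cells) where Gfap was at 0. In cortex DOCA-salt the intervals overlapped, at 100 CPM (27.2 to 256; 20 cells) against 55.8 CPM (50.2 to 61.8), and cells with 1 to 2 Gfap UMIs had 55.6 CPM. Gfap itself had a DOCA-salt to sham ratio of 1.13 (1.05 to 1.21) in hippocampal and 0.895 (0.844 to 0.949) in cortical astrocytes.

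**Figure D3:**
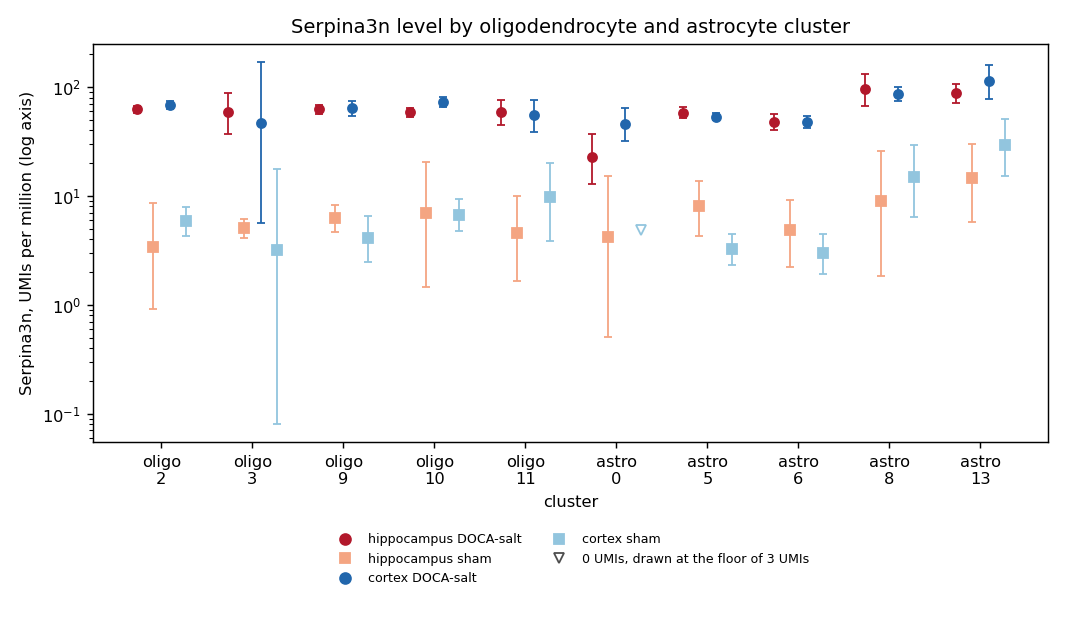
Serpina3n level in CPM on a log axis, in 5 oligodendrocyte and 5 astrocyte clusters with at least 50 cells in at least 2 libraries, with exact 95% Poisson intervals. DOCA-salt points lie above the sham points of their tissue in every cluster drawn, and astrocyte clusters 8 and 13 are the highest.

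Some smaller groups also carried the gene. A cluster of oligodendrocyte precursors, the dividing cells that give rise to oligodendrocytes, had 28.2 CPM (14.6 to 49.3; 35 cells) in hippocampus DOCA-salt. In cortex DOCA-salt it had 39.2 CPM (16.9 to 77.2; 17 cells), with 0 and 3 UMIs in the sham libraries. These DOCA-salt levels came from 12 and 8 UMIs, and without the highest cell they were 21.4 and 25.4 CPM. By the gate, 45.4% of the cells of this cluster were oligodendrocytes, its most frequent label. Precursors named by the gate had 67.9 CPM (31.1 to 129; 9 UMIs in 14 cells) in hippocampus DOCA-salt and 0 UMIs in 13 sham cells. In cortex they had 137 CPM (50.4 to 299; 6 UMIs in 8 cells) under DOCA-salt. Under sham 2 UMIs in 7 cortical cells gave 40.8 CPM (4.94 to 147). A neuron-like cluster led by Snhg11, Reln and Nhlh2 had 69.4 CPM (51.3 to 91.7; 94 cells) in hippocampus DOCA-salt and 23.3 CPM (14.0 to 36.4; 116 cells) in hippocampus sham, and 41.3 and 0 CPM in 19 and 8 cells of the cortex libraries. Of its cells 83.5% passed no gate, and its highest cell held 6 oligodendrocyte and 5 astrocyte markers of 8. An unnamed cluster of mural and fibroblast genes had 23.9, 1.06, 15 and 2.74 CPM, and 1 cell held 23 of the 37 Serpina3n UMIs of its hippocampus DOCA-salt part. That cell, chosen after its values were seen, had 0 UMIs of Dcn, Col1a1 and Tagln but 6 microglial, 5 astrocyte and 4 oligodendrocyte markers of 8 each. Without it the level there was 9.16 CPM (5.01 to 15.4) in place of 23.9.

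Within the endothelium of the DOCA-salt libraries the level was higher in cells with venous markers than in capillary cells. The venous cells held 16 of the 46 endothelial Serpina3n UMIs in hippocampus and 13 of the 30 in cortex. A cell was put in a segment by 6 venous, arterial or capillary markers. Venous cells held 16 Serpina3n UMIs in 78 cells, or 46.2 CPM (26.4 to 75.1), in hippocampus under DOCA-salt, and 13 in 49 cells, or 47.9 CPM (25.5 to 81.9), in the cortex DOCA-salt library. Capillary cells held 20 in 701 cells, or 6.33 CPM (3.87 to 9.77), and 13 in 419 cells, or 7.33 CPM (3.90 to 12.5). Venous to capillary, the ratio was 7.31 (3.54 to 14.8) in hippocampus and 6.54 (2.79 to 15.3) in cortex. Against microglia, venous cells stood at 8.91 (4.88 to 15.3) and 5.93 (3.06 to 10.6), and capillary cells at 1.22 (0.710 to 2.0) and 0.907 (0.468 to 1.62). The sham libraries had 0 UMIs in 15 and 20 venous cells, with intervals that reach up to 43.5 and 36.5 CPM. These bounds lie inside the intervals of the DOCA-salt venous cells. Arterial cells held 1 and 2 UMIs in 34 and 35 DOCA-salt cells. A single venous cell held 4 of the 16 UMIs in hippocampus DOCA-salt, and another held 5 of the 13 in cortex DOCA-salt. Both cells had 3 of 8 oligodendrocyte markers. The hippocampal cell also had 1 astrocyte and 2 microglial markers, and the cortical cell 3 of each.

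The venous markers include the adhesion genes Vcam1 and Icam1 and the chemokine receptor gene Ackr1. Venous cells were 78 of 974 endothelial cells in hippocampus DOCA-salt and 15 of 856 in sham, so the gate held more cells under DOCA-salt. With at least 2 of the other 3 markers (Slc38a5, Vwf, Nr2f2) asked for in their place, a choice made after seeing the data, the ratio to all other endothelial cells was 3.20 (1.64 to 6.62) in hippocampus and 2.05 (0.936 to 4.58) in cortex. The cortical interval includes 1. RNA of 8 abundant glial genes stood at 2433 and 4758 CPM in venous cells of the 2 DOCA-salt libraries. In capillary cells it stood at 3001 and 4750.3 CPM, and in microglia at 2200 and 2735 CPM. Whether glial RNA contributes to the venous Serpina3n level was not tested.

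**Figure D4:**
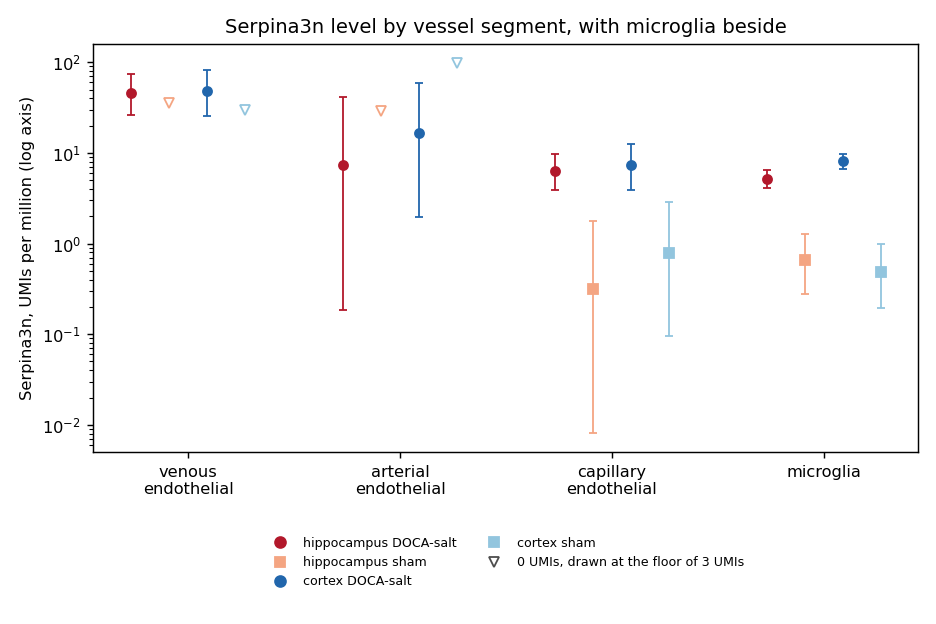
Serpina3n level in CPM on a log axis, in endothelial cells by vessel segment and in microglia, with exact 95% Poisson intervals and open triangles at the floor of 3 UMIs where 0 were counted. Venous cells of the DOCA-salt libraries, at 46.2 and 47.9, lie above capillary cells at 6.33 and 7.33.

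Serpina3n-positive endothelial cells held 3 of the 16 acute-phase transcripts more often than negative ones, with intervals apart, in hippocampus DOCA-salt. At 2000 UMIs per cell, 10 of 17 positive cells in hippocampus DOCA-salt held Lcn2, an iron-scavenging lipocalin, or 58.8% (32.9% to 81.6%), against 9.75% (7.80% to 12%) of 810 negative cells. Lrg1, a secreted glycoprotein gene of activated vessels, was in 64.7% (38.3% to 85.8%) against 5.19% (3.76% to 6.94%), and the complement gene C4b in 41.2% (18.4% to 67.1%) against 6.79% (5.16% to 8.75%). In cortex DOCA-salt, with 8 positive cells, the shares were 37.5% (8.52% to 75.5%) against 8.08% (5.88% to 10.8%) for Lcn2, 37.5% (8.52% to 75.5%) against 5.0% (3.29% to 7.24%) for Lrg1 and 25.0% (3.19% to 65.1%) against 5.0% (3.29% to 7.24%) for C4b. These intervals overlap for Lcn2 and C4b. Cp, the ferroxidase ceruloplasmin, was in 35.3% (14.2% to 61.7%) of positive against 17.8% (15.2% to 20.6%) of negative cells in hippocampus and in 4 of 8 against 22.1% in cortex, with overlapping intervals, and Cfb was in 1 and 0 positive cells. Saa3, Hp, C3, Serping1, Itih3, Orm2, Apcs, Il1rn, Timp1, Steap4 and Fgl2 were at 0 in the positive cells of both libraries, and Itih3 was in 3.85% of the negative cells of cortex. With 17 and 8 positive cells, a count of 0 leaves shares of up to 19.5% and 36.9% within the interval.

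Over the acute-phase list, endothelial cells had the highest median ratio of the 3 classes compared. A gene was counted as higher or lower when its CPM differed at least 2-fold, among genes with at least 20 UMIs in both libraries together. A gene low under sham could thus enter through its DOCA-salt count alone, which favours higher ratios in these counts and medians. In hippocampal endothelial cells the sham counts of Lcn2, Lrg1, C4b and Cfb, the higher members, were 17, 18, 19 and 5. In cortical ones those of Lcn2, Lrg1 and C4b were 24, 9 and 18. In hippocampal endothelial cells 4 of 7 measured acute-phase genes were higher and 0 lower, against 2.97% of all genes higher and 1.62% lower, with a median log2 ratio of 2.17 (0.05 over all genes). In cortical endothelial cells it was 3 of 5, against 2.87% higher, with a median of 2.58 (0.04). Lcn2 had ratios of 31.4 (19.4 to 54.2) and 15.1 (9.99 to 24.0), Lrg1 12.9 (7.99 to 22.0) and 18.5 (9.46 to 41.2), and C4b 11.1 (6.93 to 18.7) and 5.99 (3.59 to 10.5).

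In hippocampal oligodendrocytes 5 of 9 acute-phase genes were higher and 2 lower (median 1.08), against 3.58% and 2.01% of all genes, and in cortical ones 2 of 4 were higher (median 0.46), against 2.81%. Of the higher members in hippocampus, Lcn2, Lrg1, Hp and C3 held 4, 3, 2 and 3 UMIs under sham and entered through their DOCA-salt counts. C4b stood 2.11 (1.86 to 2.39) and 4.06 (3.52 to 4.69) times higher. Lcn2 was at 381 UMIs against 4 in hippocampus, and the neutrophil granule genes Elane (359 UMIs against 0) and Prtn3 (421 against 8) had high counts in those same cells. These granule genes had 14.6 and 17.2 CPM there, while microglia of that library had 0.965 and 1.39 CPM. Whether RNA of immune cells contributes to the Lcn2 value was not tested. In astrocytes 1 of 5 acute-phase genes was higher in hippocampus (Lcn2, 60 UMIs against 0), against 2.87% of all genes, and 1 of 6 in cortex (Hp, 23 against 3), against 3.59%.

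The interleukin 6 and STAT3 list, which holds cytokines, receptors, kinases and feedback genes, had median log2 ratios of 0.41 and 0.40 in hippocampal and cortical oligodendrocytes, 0.28 and 0.17 in astrocytes and 0.29 and 0.18 in endothelial cells, against 0.03 to 0.05 over all genes. Higher were 4 of 18 measured members in hippocampal and 3 of 16 in cortical oligodendrocytes (3.58% and 2.81% of all genes), 1 of 16 and 2 of 19 in astrocytes (2.87% and 3.59%) and 1 of 16 and 0 of 16 in endothelial cells (2.97% and 2.87%), with 0 lower. Socs3, the feedback inhibitor induced by STAT3, was 2.62 (2.37 to 2.90) and 4.17 (3.64 to 4.78) times higher in oligodendrocytes and 2.20 (1.66 to 2.95) and 2.02 (1.78 to 2.30) times in astrocytes. Socs3 also stood at 1.58 and 1.17 in microglia, whose own level of 344 to 589 CPM was high. Junb was 2.17 (2.11 to 2.24) and 2.42 (2.32 to 2.52) times higher in oligodendrocytes. Stat3 itself had ratios of 1.29 and 1.28 in oligodendrocytes, and its receptor partner Il6st 1.16 and 1.10.

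In the interleukin 1, TNF and NF-kB list 1 of 14 and 1 of 13 measured members were higher in oligodendrocytes (3.58% and 2.81% of all genes), 2 of 14 and 1 of 14 in astrocytes (2.87% and 3.59%) and 1 of 14 in each endothelial comparison (2.97% and 2.87%). Il1b, a cytokine gene, was the member higher in both endothelial comparisons, at 8.40 (3.86 to 21.7) and 3.60 (1.49 to 9.99). Microglia of the DOCA-salt libraries held 69.9 and 103 CPM of Il1b, and whether their RNA contributes to these values was not tested.

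Several glucocorticoid-induced genes were lower in the same comparisons. Of 13 corticosteroid targets and receptors, 3 to 4 were lower in each of the 6 comparisons, against 2.01% and 1.15% of all genes in hippocampal and cortical oligodendrocytes, 1.39% and 0.978% in astrocytes and 1.62% and 1.25% in endothelial cells. The list's median log2 ratio lay between -0.09 and 0.23. Hsd11b1, the enzyme that regenerates active glucocorticoid, was the 1 member higher in hippocampal oligodendrocytes (2.68; 2.12 to 3.41) and in hippocampal endothelial cells (2.85; 1.63 to 5.23). Zbtb16, a transcription factor, was 4.92-fold (4.52 to 5.37) and 6.34-fold (5.60 to 7.21) lower in oligodendrocytes, 3.59-fold and 4.13-fold in astrocytes and 8.38-fold and 7.22-fold in endothelial cells. Fkbp5, a chaperone of the glucocorticoid receptor, was 3.48-fold (2.95 to 4.12) and 3.18-fold (2.62 to 3.89) lower in oligodendrocytes.

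Few other serpins had enough UMIs to be measured. Of 10 other clade A3 serpins 1 had no row in the files, and 0 reached 20 UMIs in an oligodendrocyte, astrocyte or endothelial comparison, and the most seen in 1 class and library was 10 UMIs, for Serpina3g in cortical endothelial cells under DOCA-salt. Of 18 serpins of other clades, 1 of 13 measured was higher and 1 lower in hippocampal oligodendrocytes, 0 of 10 in cortical ones, 0 of 8 and 0 of 12 in astrocytes and 0 of 10 and 2 of 9 were higher in endothelial cells, where 0 were lower. Over all genes, 2.81% to 3.59% were higher and 0.978% to 2.01% lower in these comparisons. Serpinb1a, an intracellular inhibitor of neutrophil proteases, had ratios of 1.05 and 1.18 in oligodendrocytes, and Serpine2, an inhibitor of thrombin, 0.935 and 0.969 in astrocytes. Serpinh1, a collagen chaperone, was 1.57-fold (1.43 to 1.72) and 1.66-fold (1.49 to 1.86) lower in endothelial cells. In the endothelium Serpina1b, an alpha-1-antitrypsin gene, had 15 UMIs against 1 in hippocampus and 20 against 0 in cortex.

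The disease-associated oligodendrocyte list had 1 of 13 members higher and 1 lower in hippocampal oligodendrocytes and 2 of 13 higher and 1 lower in cortical ones, against 3.58% and 2.01%, and 2.81% and 1.15%, of all genes. C4b was higher in both and Sgk1, a kinase gene induced by corticosteroids, 2.30-fold and 2.14-fold lower. The pan-reactive astrocyte list had 1 of 10 members higher in astrocytes of each tissue (2.87% and 3.59% of all genes), and Vim, a filament gene, had ratios of 1.23 and 1.07. Of 10 proteases, Klk6 had ratios of 0.918 (0.831 to 1.01) and 1.36 (1.26 to 1.46) in oligodendrocytes.

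The genes with the most similar pattern were found by Pearson correlation of log2(CPM + 1) over 5 classes in 4 libraries, 20 points that share libraries, depth and free RNA. Of 14116 genes the highest were Bricd5 (r = 0.903), Eif3j2 (0.850), C4b (0.828), Tmem181a (0.808), Rbm45 (0.801), Cirbp (0.801), Gm46447 (0.799), Gm15972 (0.796), C030047K22Rik (0.795) and Ogdhl (0.794). Bricd5 had 23.6, 7.18, 23.4 and 7.08 CPM in oligodendrocytes and 32.6, 4.4, 29.6 and 3.50 CPM in astrocytes, for hippocampus under DOCA-salt and sham, then for cortex. Eif3j2 differed in that its microglial levels, 5.79 and 5.61 CPM in the DOCA-salt libraries, were near its level of 5.71 CPM in cortical oligodendrocytes. C4b was already at 45.5 and 39.9 CPM in sham astrocytes.

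**Figure D5:**
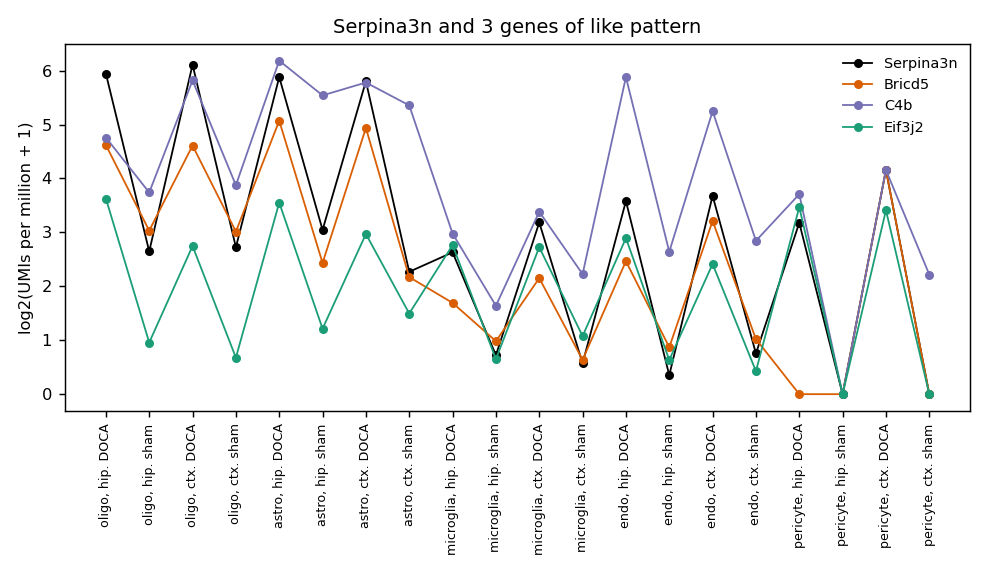
Levels of Serpina3n, Bricd5, C4b and Eif3j2 as log2(CPM + 1) at the 20 points of 5 classes and 4 libraries; lines only join the points of a gene. All 4 genes are higher in the DOCA-salt library of each pair in oligodendrocytes, astrocytes, microglia and endothelial cells.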

How the data were processed

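The deposited matrices hold UMI counts per gene and barcode, made by the authors from 3' droplet libraries (a SeekOne DD kit, per the labels' protocols). Tools named in the submitters' processing notes are Seurat, STAR, fastp and Subread, with GRCm38 as the build. Versions, annotation and counting strand are not given in the sources used here. Barcodes under 300 genes or above 20% mitochondrial UMIs were dropped, and Scrublet (scanpy 1.11.5, expected rate 0.08) removed 4.22% to 6.64% as doublets. Counts were summed by class and library and divided by the class total per 1000000. Poisson, binomial and conditional ratio intervals were exact (95%, scipy 1.17.1). The floor was 3 counts. No p-value was computed. Leiden clustering used 2000 variable genes, 30 components, 15 neighbours and resolution 1. The ratio step was tested on simulated counts: of 200 genes changed 4-fold in hippocampal oligodendrocytes (15052 genes), 99.5% were recovered.

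The gene, the lists and the markers were chosen with earlier results of these data known. Genes named were Serpina3n, the 10 of most similar pattern and, from each list, members farthest from a ratio of 1 or at least 2-fold apart in both tissues. The glial RNA list and the second venous gate were chosen after seeing the values. Alternatives changed the gate, the filter, doublet removal, weighting, depth, the highest cells, clusters held by 1 library and shared barcodes.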

Additional observations from a re-analysis of the deposited data

How the results depend on the processing

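Of 66 alternative values of the DOCA-salt to sham ratio by class and tissue, 60 moved by less than the interval of the main value, 6 moved by more and 0 changed direction. Without the 1% of cells with the most Serpina3n UMIs, the ratio was 16.5 and 19.5 in hippocampal and cortical oligodendrocytes and 27.2 in cortical astrocytes, since that 1% held a larger part of the few sham UMIs. Thinned to 2000 UMIs, cortical astrocytes gave 20.1, cortical microglia 44.2 and cortical endothelial cells 4.20 (0.838 to 40.6). Of 54 values of the hippocampus to cortex ratio 51 stayed within that interval. Astrocytes gave 0.946 under DOCA-salt with equal weight per cell, and under sham 3.17 when thinned and 3.01 without the highest 1%. Some of these tissue ratios crossed 1, each with a main interval that included 1. Besides that 0.946, oligodendrocytes under sham gave 1.07 without the highest 1%, from 0.939. Endothelial cells under DOCA-salt gave 1.06 without doublet removal and 1.52 when thinned, from 0.928. The hippocampal endothelial ratio of DOCA-salt to sham had no value when thinned or by joint clustering, where sham cells held 0 UMIs. Removal of the highest 1% of cells left no such ratio in endothelial cells and microglia of either tissue. That 1% held 100% of their sham UMIs.

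Thinning lowered the share of positive cells to 10.6%, 1.14%, 11.2% and 1.11% in oligodendrocytes, 10.9%, 1.77%, 10.2% and 0.524% in astrocytes, 2.06%, 0% and 1.52% in endothelial cells (cortex sham excepted) and 1.02%, 0.0957%, 1.88% and 0.0437% in microglia. By Spearman correlation 5 of the 10 most similar genes were named again. Genes at least 2-fold higher and lower, with a minimum of 50 UMIs and then of 1, numbered 264 and 152, then 1713 and 881, in hippocampal oligodendrocytes (539 and 302 at 20 UMIs); 173 and 67, then 1426 and 722, in cortical ones (388 and 159); 150 and 91, then 1026 and 1306, in hippocampal astrocytes (392 and 189); 253 and 79, then 1462 and 834, in cortical ones (558 and 152); 147 and 92, then 1083 and 949, in hippocampal endothelial cells (350 and 191); and 92 and 46, then 1250 and 569, in cortical ones (321 and 140).

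Replicates could not be paired within a tissue, because each group held 1 library and the labels carry no replicate numbers. Taking the 2 tissues as pairs was not done, as it would treat them as replicates. Leaving out a replicate would leave a group empty. Depth also limits the vessel values, as sham endothelial cells held 1 and 2 Serpina3n UMIs and sham pericytes 0 and 0.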
